A study of Mus musculus with 24 samples.

Results

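Hearts of mice labelled heterozygous for Acadl were compared with hearts of wild-type mice. Libraries were chosen by the genotype label alone: 4 libraries carried the label Acadl Het / Acadvl wt and 4 the label Acadl wt / Acadvl wt, which makes 8 of the 24 heart libraries in the series. All 8 came from male mice, 14 weeks old and fed chow, of a mixed strain that was mostly C57BL/6N with some 129. Both genotypes carried 2 wild-type alleles of Acadvl by label, so they differed in the Acadl label only. Each genotype had 2 libraries in each of the 2 RNA isolation batches. In the Acadl Het group replicates 1 and 2 belonged to batch 2 and replicates 3 and 4 to batch 1, and the same held for the wild type. Replicate numbers follow the order of deposit and pair nothing. In the wild type, both libraries of a batch share the first number of their titles, and what that number means is not stated in the labels. How the Acadl allele was made is not stated there either. Since nothing in the labels says that each sample is a different mouse, the p-values cover the spread between samples, which may be technical.

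Acadl encodes long-chain acyl-CoA dehydrogenase, a mitochondrial enzyme that takes the opening step of the beta-oxidation cycle on long-chain fatty acyl-CoA. Its relative Acadvl, the very long-chain acyl-CoA dehydrogenase, does the same on an overlapping range of chain lengths at the inner mitochondrial membrane. The heart draws much of its energy from fatty acids, and the series title links a defect of this pathway in the mouse heart to uncharged transfer RNA and the integrated stress response. In that response, the transcription factor ATF4 raises genes of amino acid synthesis and transfer RNA charging. The comparison asks what, if anything, differed in heart messenger RNA where only 1 Acadl allele was altered by label.

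The libraries were of like depth. Total counts were 34320838 to 50899683 in the Acadl Het hearts and 38677364 to 51743114 in the wild type, and 17955 to 18351 and 17949 to 18324 genes had at least 1 count. Levels below are CPM, counts scaled to the library size with TMM factors, and differences are log2 Acadl Het minus wild type from edgeR with its standard error (SE). All 8 libraries held high levels of heart muscle transcripts. Myh6, the main myosin heavy chain of the adult mouse heart, was at 35407 to 43633 CPM in the Acadl Het hearts and 34413 to 42975 CPM in the wild type. The 12 ventricular cardiomyocyte markers summed to 77005 to 89625 CPM and 80178 to 88459 CPM. Liver transcripts were at traces: Alb, the albumin gene, was at 0.195 to 6.62 CPM in the Acadl Het hearts and 0.0669 to 3.05 CPM in the wild type.

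Acadl itself was not lower in the Acadl Het hearts. It was at 1405, 1625, 1558 and 1608 CPM in Acadl Het replicates 1 to 4 and at 1412, 1324, 1369 and 1325 CPM in wild-type replicates 1 to 4. Acadl Het replicate 1 lay just below the highest wild-type library and the other 3 lay above all 4. The log2 difference was 0.19 (SE 0.06), with an edgeR adjusted p = 0.927. An exact two-sided permutation test on CPM gave p = 0.0571, where the smallest p that 4 against 4 allows is 0.0286. Acadl reads (chromosome 1, 66830839 to 66863309, minus strand, mm10) therefore do not check the heterozygous label. In the hearts labelled Acadl KO / Acadvl wt it was higher still, at 1894 ± 167 CPM (SD, n = 4). Acadvl was at 1632 ± 82.5 CPM in the Acadl Het hearts and 1577 ± 19.3 CPM in the wild type (SD, n = 4 each), a log2 difference of 0.05 (SE 0.12).

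No gene passed the test. Of 15804 genes tested, edgeR called 0 at an adjusted p under 0.05 (0%), limma voom called 0 and DESeq2 called 1. The 1 gene was Junb, with a DESeq2 adjusted p = 0.00125. Without adjustment, 541 genes had an edgeR p under 0.05, which is 3.42% of those tested. Of these, 341 were higher in Acadl Het hearts (2.16%) and 200 lower (1.27%). In this fit, whose spread comes from all 24 libraries, the 3.42% is below the share of 0.05 that chance alone would give if no gene differed. With the 8 libraries alone the count was 925 in place of 541, so the share depends on the libraries that set the spread. The 2.16% and 1.27% are the background of each list count below. In 297 genes all 4 Acadl Het libraries lay above all 4 wild-type libraries (1.88%), and in 221 all 4 lay below (1.40%). The median log2 difference over all genes was 0.00. The counts of unadjusted p therefore describe the order of the genes and name none as different.

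Within a batch, the libraries of Acadl Het hearts varied more among themselves than those of the wild type. In the wild type, the libraries compared within a batch share the first number of their titles, whose meaning is not stated. Among 9023 genes above 10 CPM, the median SD of log2 CPM within a genotype, with the batch mean taken out, was 0.108 in Acadl Het and 0.075 in the wild type. The SD was higher in Acadl Het for 69.7% of these genes. Over genes above 10 CPM, the root mean square log2 distance between libraries of 1 genotype and batch was 0.238 and 0.258 in Acadl Het against 0.166 and 0.182 in the wild type. Libraries of different genotype in 1 batch were 0.181 to 0.295 apart, a range that overlaps both. Across batches, the 4 pairs of each genotype overlapped, at 0.206 to 0.308 in Acadl Het and 0.197 to 0.255 in the wild type. The Acadl Het pairs with replicate 4 were at 0.308, 0.244 and 0.258, and those without it at 0.238, 0.209 and 0.206.

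Where the mean level reached 1 CPM and the gene had a proper name, the 10 of smallest p that were higher in the Acadl Het hearts were Junb, Ccl11, Ptx3, Asns, Bcl3, Tubb6, Bcr, Thbs1, Sbno2 and Egr2. They were chosen for groups that do not overlap, so their separation is a description. Junb, which encodes an AP-1 transcription factor that is induced within minutes of many stimuli, stood first. It was at 60.8, 39.6, 35.1 and 71.4 CPM in Acadl Het replicates 1 to 4 and at 18.1, 20.7, 18.7 and 22.7 CPM in wild-type replicates 1 to 4. The lowest Acadl Het library lay clear of the highest wild-type library, with replicates 1 and 4 at the top. The log2 difference was 1.37 (SE 0.27; edgeR adjusted p = 0.486), and it was 1.36 within batch 1 and 1.37 within batch 2. EdgeR called Junb when Acadl Het / Acadvl Het replicate 3, a library of another genotype, was left out (adjusted p = 0.0214).

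**Figure D1:**
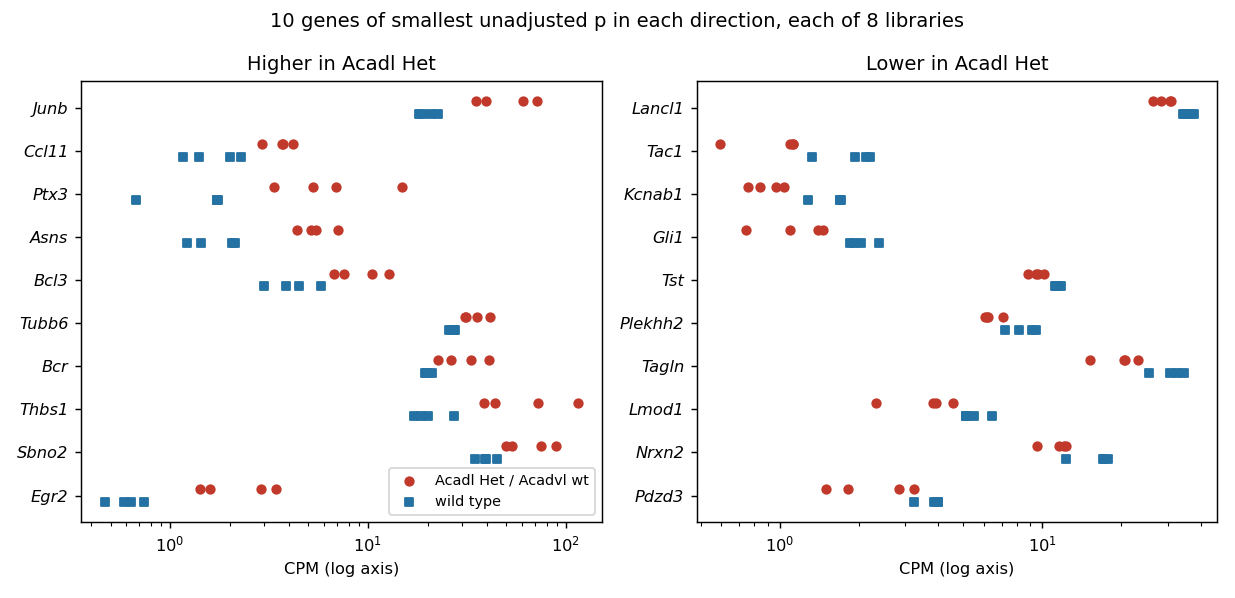
Level in CPM (log axis) of the 10 genes of smallest unadjusted p that were higher (left) and lower (right) in Acadl Het hearts. Each point is 1 library, circles for Acadl Het / Acadvl wt and squares for wild type (4 each); the genes were chosen for groups that do not overlap, and on the left the widest gap is that of Asns, at 4.39 to 7.06 CPM against 1.22 to 2.13 CPM.

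Ptx3, a secreted pattern recognition protein, was at 14.8, 5.27, 3.34 and 6.92 CPM in Acadl Het hearts and at 1.74, 1.72, 0.674 and 1.72 CPM in the wild type. Thbs1, which encodes the matrix protein thrombospondin-1, was at 72.0, 44.0, 38.6 and 115.5 CPM against 20.005, 18.6, 17.0 and 27.2 CPM. In both, all Acadl Het libraries lay above the wild type and spread widely, and wild-type replicate 3 was the lowest library. Ptx3 differed by 2.34 (SE 0.56; edgeR adjusted p = 0.565) and Thbs1 by 1.70 (SE 0.45; edgeR adjusted p = 0.719). Bcl3, a nuclear partner of NF-kappa-B, differed by 1.13 (SE 0.29). Sbno2, a transcriptional regulator induced by interleukin signals, differed by 0.76 (SE 0.20). Bcr, which encodes a regulator of small GTPases, differed by 0.61 (SE 0.16), and Tubb6, a beta-tubulin gene, by 0.38 (SE 0.10).

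Immediate early genes as a list leaned the same way, but the list holds Junb and Egr2, already named above. This list and those below were written with earlier results of these data known. Of 37 immediate early genes tested, 0 were called. With an unadjusted p under 0.05, 12 were higher (beside 2.16% of all genes) and 0 lower. A positive log2 difference was seen in 33, and the median was 0.39, beside 0.00 over all genes. In 9 all Acadl Het libraries lay above the wild type, beside 1.88% of all genes. Egr2, a zinc finger transcription factor, was at 3.43, 1.59, 1.42 and 2.89 CPM in Acadl Het hearts and 0.588, 0.736, 0.468 and 0.632 CPM in the wild type (1.93, SE 0.52). Egr1, of the same family, was at 90.5, 30.0, 36.8 and 66.8 CPM against 22.6, 27.0, 25.6 and 18.7 CPM (1.26, SE 0.46). Replicates 1 and 4 were again the highest, and replicate 2 lay just above the wild type. Fos, the AP-1 partner of the Jun proteins, was at 45.9, 9.24, 23.4 and 22.8 CPM against 7.06, 10.2, 11.9 and 4.35 CPM, so that replicate 2 lay among the wild-type libraries. Socs3, a feedback inhibitor of JAK-STAT signalling, was at 39.1, 19.3, 11.9 and 38.9 CPM against 9.83, 6.80, 6.61 and 12.5 CPM (1.62, SE 0.42; edgeR adjusted p = 0.719). Without Acadl Het replicate 1, Egr1 differed by 0.77 and Fos by 1.02. The median of the list was 0.44 within batch 1 and 0.35 within batch 2, and leaving out 1 library at a time gave 0.28 to 0.51.

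Il6 and other inflammatory cytokine transcripts were scarce in all hearts. Of 34 genes in the list of cytokines, chemokines and their receptors, which holds Ccl11 named above, 0 were called. An unadjusted p under 0.05 was found in 12 that were higher (beside 2.16% of all genes) and 0 that were lower. In 9 all Acadl Het libraries lay above the wild type, beside 1.88% of all genes. A positive difference was seen in 28 and a negative one in 6, and the median log2 difference was 0.76. The summed level of the list overlapped, at 459 to 709 CPM in Acadl Het (lowest in replicate 2) and 506 to 588 CPM in the wild type. Most of it was Cxcl12, the most abundant member and a chemokine of resident cells, at 391, 245, 327 and 327 CPM against 308, 364, 316 and 314 CPM (-0.02, SE 0.21). Il6, which encodes the inflammatory cytokine interleukin-6, had 29, 8, 7 and 25 counts in Acadl Het replicates 1 to 4 and 3, 4, 0 and 3 counts in the wild type. As a level this was 0.795, 0.195, 0.134 and 0.475 CPM against 0.0735, 0.0892, 0 and 0.0575 CPM (2.80, SE 0.61; edgeR adjusted p = 0.486). Il1b, which encodes interleukin-1 beta, was at 1.51, 0.415, 0.480 and 0.761 CPM against 0.123, 0.312, 0.0187 and 0.230 CPM (2.16, SE 0.47). All 4 Acadl Het libraries lay above the wild type for both, by a small margin in replicates 2 and 3. Ccl2, the main chemoattractant of monocytes, was at 16.2, 6.83, 5.45 and 11.1 CPM against 1.79, 2.32, 0.674 and 3.18 CPM (2.31, SE 0.69). Ccl7, its neighbour on chromosome 11, was at 11.5, 3.49, 2.51 and 7.13 CPM against 1.35, 1.74, 0.356 and 1.48 CPM (2.32, SE 0.67). Ccl11, the eosinophil chemokine eotaxin, was tighter, at 4.17, 2.93, 3.70 and 3.69 CPM against 1.40, 2.28, 1.16 and 2.01 CPM (1.08, SE 0.25; edgeR adjusted p = 0.565). Cxcl2, a neutrophil chemokine, overlapped between the groups (1.80, SE 0.51).

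The median of the cytokine list depended on rare transcripts. Among members with a mean of at least 1 CPM it was 0.16, and it was 0.45 without Acadl Het replicate 1 and 0.97 without Acadl Het replicate 3. It was 0.85 within batch 1 and 0.80 within batch 2. By library, the median log2 level of the list stood at 1.16, 0.29, 0.56 and 1.03 above the wild-type mean in Acadl Het replicates 1 to 4, and between -0.19 and 0.11 in the wild type.

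**Figure D2:**
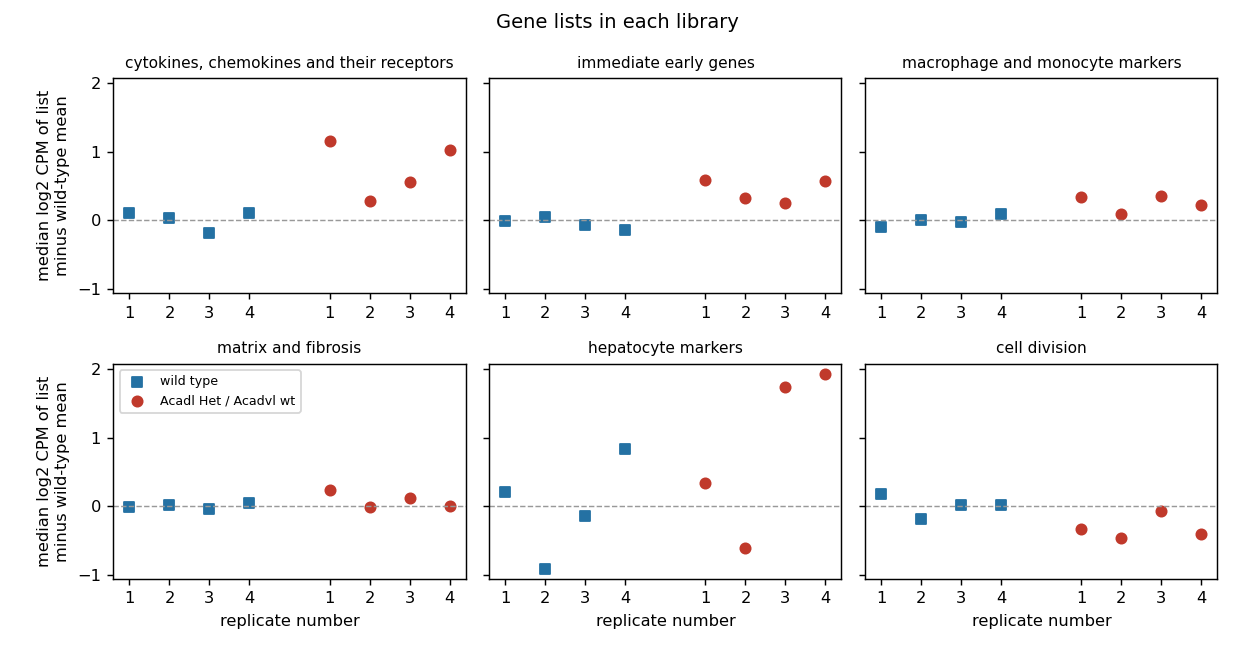
Median log2 CPM of the members of 6 gene lists in each library, as the difference from the wild-type mean of each gene; squares are the 4 wild-type libraries and circles the 4 Acadl Het / Acadvl wt libraries, by replicate number. Immediate early genes stand at 0.26 to 0.59 in the Acadl Het libraries, while hepatocyte markers stand high in replicates 3 and 4 only, at 1.74 and 1.93.

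Markers of the cells that could carry these transcripts were measured beside them. Of 19 macrophage and monocyte markers, 4 were higher with an unadjusted p under 0.05 (beside 2.16% of all genes), 0 lower and 0 called. In 5 all Acadl Het libraries lay above the wild type, beside 1.88% of all genes. The median was 0.20, and the summed level was 409 to 479 CPM in Acadl Het and 373 to 428 CPM in the wild type. Mrc1, the mannose receptor of resident macrophages, was at 36.1, 28.6, 36.6 and 40.6 CPM against 25.5, 24.8, 28.2 and 27.7 CPM (0.42, SE 0.16). C1qb, a complement component made by macrophages, was at 38.0, 33.7, 34.3 and 34.4 CPM against 27.2, 27.7, 24.7 and 27.9 CPM (0.39, SE 0.15), with no overlap in either gene. F13a1, a factor XIII subunit found in macrophages, overlapped (0.37, SE 0.17). Neutrophil markers were near the floor: 4 of 9 passed the filter on low counts, and they summed to 3.32 to 4.80 CPM against 3.02 to 3.59 CPM. Of 13 lymphocyte markers 10 passed, with a sum of 3.06 to 5.27 CPM against 2.20 to 3.48 CPM and a median of 0.77 (0.35 without Acadl Het / Acadvl KO replicate 4). In a bulk sample, more cells of a type and more RNA per cell cannot be told apart. The part of these cell types in the cytokine values was not tested.

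Of 16 genes of endothelial activation, 4 were higher with an unadjusted p under 0.05 (beside 2.16% of all genes) and 0 lower. The median was 0.03. Ptgs2, the inducible cyclooxygenase, was at 2.58, 2.19, 1.11 and 3.56 CPM against 0.956, 0.580, 0.787 and 1.17 CPM (1.43, SE 0.40). Icam1, a leukocyte adhesion receptor, differed by 0.51 (SE 0.16) and Sele, which encodes E-selectin, by 1.01 (SE 0.37) and 0.57 without Acadl Het replicate 1, with overlap in both. Endothelial markers summed to 2256 to 2610 CPM in Acadl Het and 2287 to 2527 CPM in the wild type. Of 28 matrix genes, Thbs1 among them, 5 were higher with an unadjusted p under 0.05 (beside 2.16% of all genes) and 0 lower. The median was 0.11, and it was at 0.00 without Acadl Het replicate 1. Timp1, an inhibitor of matrix metalloproteinases, was at 11.96, 7.24, 6.28 and 15.4 CPM against 3.82, 3.03, 2.51 and 2.99 CPM (1.73, SE 0.53). Tnc, which encodes tenascin-C, a matrix protein of injured tissue, was at 5.43, 2.9997, 3.19 and 5.55 CPM against 1.15, 2.12, 1.46 and 1.02 CPM (1.57, SE 0.53). Replicates 1 and 4 were the highest in both. Rcan1, an inhibitor of calcineurin, was the 1 of 18 cardiac stress and fetal genes with an unadjusted p under 0.05, at 1.09 (SE 0.31) and 0.70 without Acadl Het replicate 4; the median of that list was 0.03. Fibroblast markers overlapped, at 2433 to 3082 CPM against 2591 to 3026 CPM.

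Of 18 glucocorticoid-induced genes, 2 were higher and 1 lower with an unadjusted p under 0.05, 0 were called, and the median was 0.05. The higher pair were Mt2 and Lcn2, both highest in Acadl Het replicate 4. Mt2, a metallothionein gene, was at 132, 165, 84.6 and 489 CPM in Acadl Het and 75.1, 43.8, 104 and 91.4 CPM in the wild type (1.46, SE 0.49), and 0.71 without replicate 4. Lcn2, which encodes the iron carrier lipocalin-2, was at 10.7, 14.9, 12.2 and 32.6 CPM against 6.96, 3.68, 10.5 and 9.97 CPM (1.18, SE 0.41), and 0.74 without replicate 4. Hmox1, the inducible heme oxygenase, was at 30.1, 44.5, 36.6 and 146 CPM against 36.4, 19.6, 46.7 and 24.1 CPM, so that only replicate 4 left the wild-type range. Its log2 difference was 0.98 (SE 0.56) and 0.24 without that library. Of 26 NRF2 targets, the antioxidant genes to which Hmox1 belongs, 0 were higher with an unadjusted p under 0.05 and 1 was lower: Gsta4, a glutathione transferase of lipid aldehydes, at -0.22 (SE 0.10), and -0.13 without Acadl Het replicate 4. Reads of the Gsta family can be shared between close copies, so its value is uncertain.

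Promoter sequence was read for 3 genes of the immediate early and cytokine lists: Junb because it had the smallest p, and Il6 and Socs3 because they stand at the start and the end of a known cytokine circuit. Each window runs from 250 bases before to 50 bases after the start of the gene (RefSeq, GRCm38.p6), written 5′ to 3′ on the strand of the gene. Capitals mark letters that match 1 of 5 motifs searched on both strands: TGACGTCA (cyclic AMP response element), TGANTCA (AP-1), TTCNNNGAA (STAT), the CArG box of serum response factor and the NF-kappa-B site, the last pair by their usual consensus. TGACGTCA and TGANTCA cannot match the same letters.
Junb, chr8:84978699-84978998, minus strand: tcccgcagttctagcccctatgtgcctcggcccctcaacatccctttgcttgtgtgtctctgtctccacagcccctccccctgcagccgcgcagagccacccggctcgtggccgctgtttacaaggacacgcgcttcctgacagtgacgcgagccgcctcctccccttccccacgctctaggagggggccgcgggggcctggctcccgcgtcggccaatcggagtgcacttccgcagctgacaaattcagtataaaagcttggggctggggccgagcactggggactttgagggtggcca
Il6, chr5:30012864-30013163, plus strand: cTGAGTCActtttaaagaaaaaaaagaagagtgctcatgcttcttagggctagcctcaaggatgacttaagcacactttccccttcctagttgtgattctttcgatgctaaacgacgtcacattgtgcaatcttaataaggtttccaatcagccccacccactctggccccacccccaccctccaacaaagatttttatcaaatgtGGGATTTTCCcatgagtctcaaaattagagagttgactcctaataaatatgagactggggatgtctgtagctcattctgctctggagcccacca
Socs3, chr11:117969317-117969616, minus strand: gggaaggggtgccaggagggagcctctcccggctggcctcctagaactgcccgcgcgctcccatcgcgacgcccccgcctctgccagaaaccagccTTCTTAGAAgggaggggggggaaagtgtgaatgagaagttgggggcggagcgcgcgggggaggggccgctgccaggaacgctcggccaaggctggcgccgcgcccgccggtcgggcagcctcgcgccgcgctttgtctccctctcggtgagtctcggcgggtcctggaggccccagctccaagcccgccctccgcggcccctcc
The Il6 window holds an AP-1 match at -249 to -243 and an NF-kappa-B match at -44 to -35, the Socs3 window a STAT match at -154 to -146, and the Junb window no match, counted from the start of the gene with no position 0.

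Over the genes tested, 11668 had a window in the table. An NF-kappa-B match was in 12.5% of these, an AP-1 match in 6.72%, a STAT match in 8.44%, a cyclic AMP response element in 3.32% and a CArG box in 1.62%. Of 26 cytokine list genes with a window, 7 held an NF-kappa-B match (26.9%), 4 an AP-1 match (15.4%), 1 a STAT match (3.85%) and 0 a cyclic AMP response element or a CArG box. Of 30 immediate early genes with a window, 7 held an NF-kappa-B match (23.3%), 4 a STAT match (13.3%), 3 a CArG box (10%), 3 a cyclic AMP response element (10%) and 2 an AP-1 match (6.67%). The search was chosen after the values were seen, and a match of letters shows no binding.

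Genes of fatty acid oxidation were close to the wild type. Of 15 acyl-CoA dehydrogenases and electron transfer flavoprotein genes, 1 was higher with an unadjusted p under 0.05, Acadl itself, and the differences ran from -0.06 to 0.19 with a median of 0.04. Etfdh, which passes their electrons to the respiratory chain, was at 828, 881, 892 and 867 CPM against 824, 810, 790 and 801 CPM (0.11, SE 0.08). All 4 Acadl Het libraries lay above the wild type, replicate 1 by under 4 CPM. Of the 12 genes of the later beta-oxidation steps, 0 had an unadjusted p under 0.05 in either direction, and they ran from -0.05 to 0.08. Hadha, the alpha subunit of the mitochondrial trifunctional protein, was at 2120, 2206, 2161 and 1998 CPM against 2043, 2101, 1934 and 1938 CPM (0.08, SE 0.08). The 8 genes of the carnitine shuttle ran from -0.17 to 0.11, with Cpt1b, the carnitine palmitoyltransferase of muscle, at 0.04 (SE 0.09). Over the 34 nuclear-encoded subunits of oxidative phosphorylation, 0 had an unadjusted p under 0.05, and the range was -0.10 to 0.06.

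A pair of genes that feed or spare the pathway had small unadjusted p-values. Acsl1, the main long-chain acyl-CoA synthetase of the heart, was at 1344, 1437, 1489 and 1448 CPM against 1242, 1303, 1189 and 1232 CPM, with no overlap (0.20, SE 0.07; edgeR adjusted p = 1.00). Pdk4, the kinase that shuts off pyruvate dehydrogenase and a PPAR-alpha target, was at 5098, 5726, 5807 and 8935 CPM against 5385, 4870, 4702 and 3843 CPM (0.45, SE 0.17). It was at 0.79 within batch 1 and 0.08 within batch 2, and 0.22 without Acadl Het replicate 4, its highest library. Of 24 PPAR-alpha targets, 1 was higher with an unadjusted p under 0.05 and 0 lower, with a median of 0.06.

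**Figure D3:**
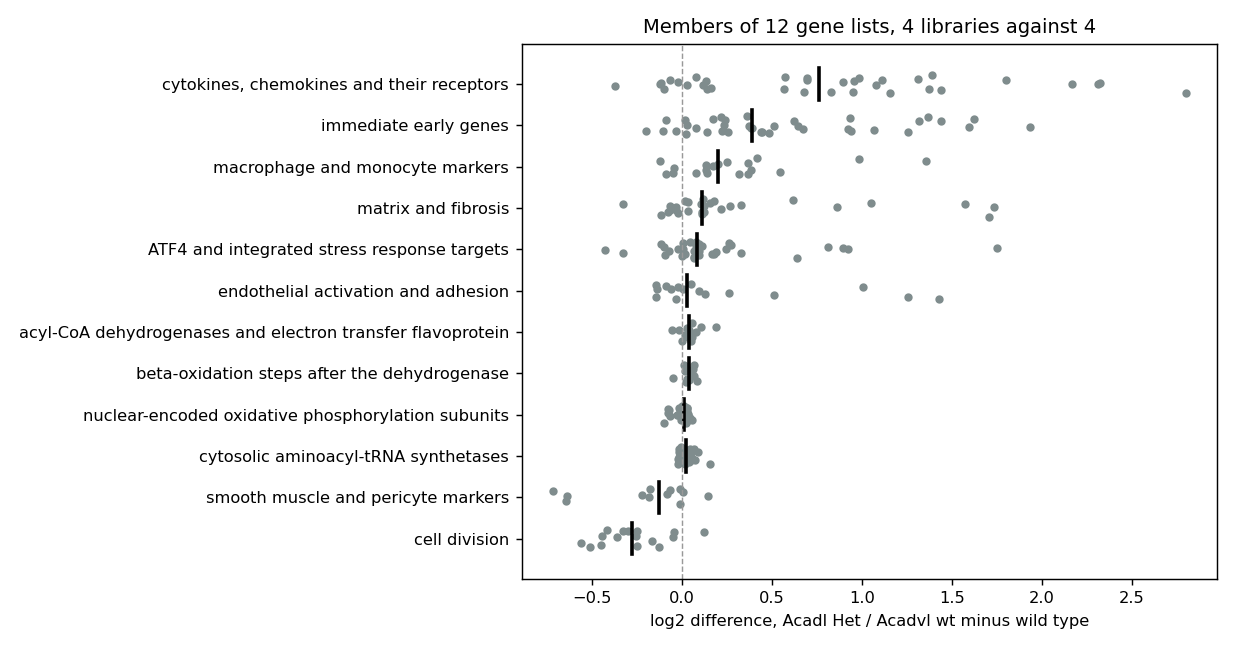
Log2 difference, Acadl Het / Acadvl wt minus wild type (4 libraries each), of every tested member of 12 gene lists; each point is a gene, spread vertically for sight, and the black bar is the list's median. Fatty acid oxidation, oxidative phosphorylation and transfer RNA synthetase genes lie within 0.2 of 0, while cytokines reach 2.80 and immediate early genes 1.93.

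Asns had the largest difference among the ATF4 targets. It encodes asparagine synthetase, a gene raised by ATF4 when amino acids or charged transfer RNA are short. It was at 5.49, 4.39, 5.16 and 7.06 CPM in the Acadl Het hearts and at 2.13, 2.05, 1.22 and 1.44 CPM in the wild type, with no overlap. The log2 difference was 1.75 (SE 0.44; edgeR adjusted p = 0.719), at 2.20 within batch 1 and 1.24 within batch 2. Of 34 ATF4 and integrated stress response targets, 0 were called, 2 were higher with an unadjusted p under 0.05 and 0 lower, and the median was 0.09. The other was Mthfd1l, a mitochondrial enzyme of one-carbon metabolism, at 1.15, 1.07, 0.806 and 0.989 CPM against 0.735, 0.625, 0.599 and 0.613 CPM (0.64, SE 0.28). Stc2, a secreted glycoprotein in the same list, went the other way at -0.43 (SE 0.23). Fgf21, the hormone often used as a readout of mitochondrial stress, was at 0.0549 to 0.134 CPM in Acadl Het and 0.0383 to 0.0981 CPM in the wild type, too few counts to compare (0.90, SE 2.28). Of 22 cytosolic aminoacyl-tRNA synthetases 1 was higher with an unadjusted p under 0.05, Farsa, at 0.16 (SE 0.07), and the list ran from -0.02 to 0.16. Of 20 endoplasmic reticulum chaperones 2 were, Sdf2l1 at 0.49 (SE 0.18) and Calr, which encodes calreticulin, at 0.17 (SE 0.08) and 0.09 without Acadl Het replicate 1.

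Set beside the hearts labelled KO for Acadl or Acadvl, the Asns level of Acadl Het / Acadvl wt was low. In Acadl KO / Acadvl wt it stood at 26.3 ± 16.7 CPM (SD, n = 4). In Acadl KO / Acadvl Het it stood at 28.5 ± 11.0 CPM (n = 5), and in Acadl Het / Acadvl KO at 67.0 ± 15.7 CPM (n = 4). The lowest of those, 8.74 CPM in an Acadl KO / Acadvl wt library, was above the highest Acadl Het / Acadvl wt library. The Acadl KO / Acadvl wt hearts exceeded the Acadl Het / Acadvl wt hearts in Asns by 2.09 (SE 0.40; edgeR adjusted p = 5.00e-04), a comparison in which 34.8% of all genes were called. In Acadl Het / Acadvl Het, Asns was at 4.70 ± 1.80 CPM (n = 3), with replicates 1 and 3 inside the range of Acadl Het / Acadvl wt and replicate 2 below it at 2.73 CPM. Its difference from the same wild-type libraries was 1.46 (SE 0.48; edgeR adjusted p = 0.439, with 0.443% of genes called). Replicate 1 of Acadl Het / Acadvl Het had 17.3% of its counts on the ribosomal RNA gene Rn45s, beside 0.558% in the next highest library of the series.

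Junb did not follow that order. Its mean was 24.0 ± 6.85 CPM in Acadl KO / Acadvl wt (SD, n = 4). For Acadl KO / Acadvl Het the mean was 19.955 ± 1.86 CPM (n = 5), and for Acadl Het / Acadvl KO 27.4 ± 3.64 CPM (n = 4). Acadl KO / Acadvl wt was below Acadl Het / Acadvl wt by 1.08 (SE 0.27; edgeR adjusted p = 0.00443). In Acadl Het / Acadvl Het, replicates 1, 2 and 3 were at 22.1, 31.0 and 65.7 CPM, where replicate 1 is the library high in Rn45s. Il6 was at 0.354 ± 0.208 CPM in that genotype and at 0.0192 ± 0.0129 CPM in Acadl KO / Acadvl wt, which was below Acadl Het / Acadvl wt by an edgeR adjusted p = 2.41e-04. Its neighbours in order, Acadl Het / Acadvl wt and Acadl Het / Acadvl Het, overlapped. Junb and Il6 were named because they were high in these same Acadl Het / Acadvl wt libraries. Their lower levels in Acadl KO / Acadvl wt are therefore a description, in a comparison where 34.8% of all genes were called.

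**Figure D4:**
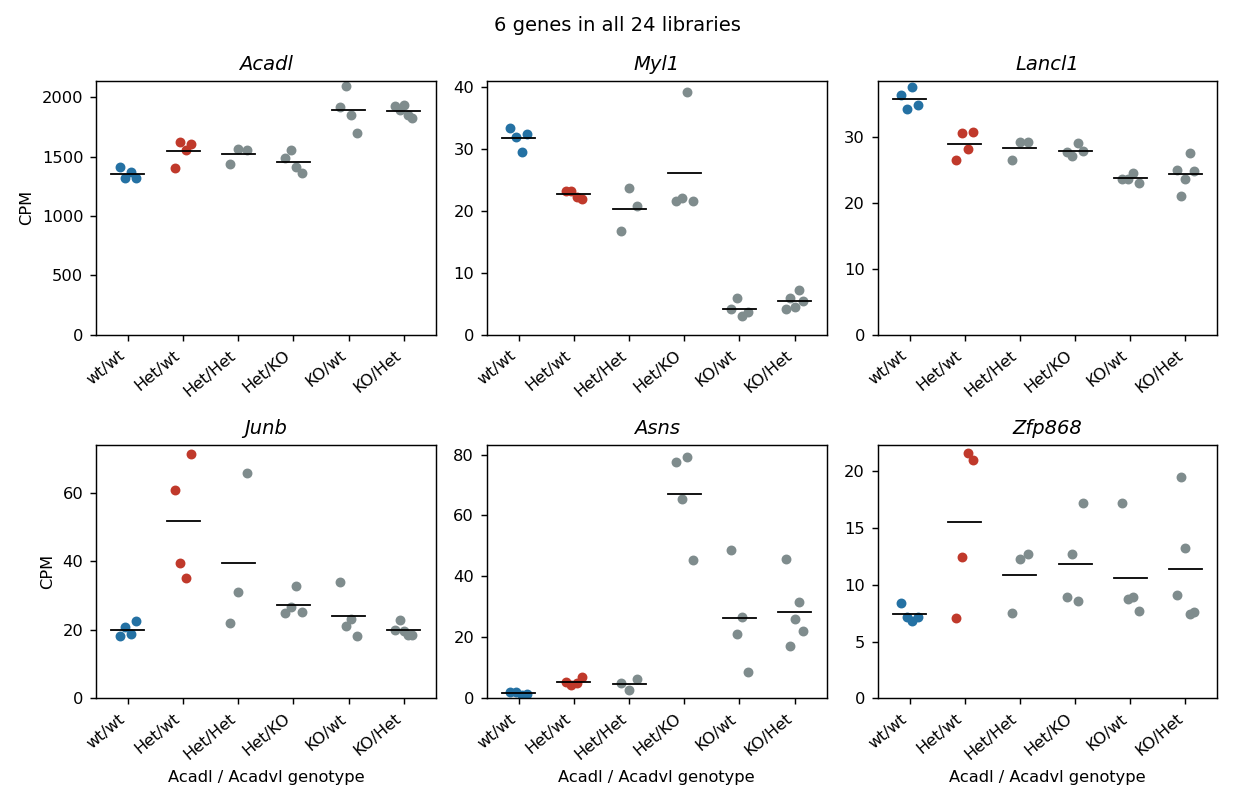
Level in CPM of 6 genes in all 24 libraries by genotype (Acadl label, then Acadvl label); each point is a library, the bar is the mean, and blue and red mark the 4 wild-type and 4 Acadl Het / Acadvl wt libraries. Myl1 and Lancl1 step down from wild type through Acadl Het to Acadl KO, except for an Acadl Het / Acadvl KO library with Myl1 above the wild type. Asns is 4.39 to 7.06 CPM in Acadl Het / Acadvl wt, and Zfp868 spreads over separate levels within most genotypes.

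The lower genes were of other kinds. The 10 of smallest p were Lancl1, Tac1, Kcnab1, Gli1, Tst, Plekhh2, Tagln, Lmod1, Nrxn2 and Pdzd3, again chosen for groups that do not overlap. Tac1, which encodes the neuropeptide substance P, was at 1.10, 1.12, 0.595 and 1.12 CPM in Acadl Het hearts and 2.13, 2.21, 1.93 and 1.32 CPM in the wild type (-0.94, SE 0.25; edgeR adjusted p = 0.719). Gli1, a transcription factor and target of hedgehog signalling, was at 1.10, 1.46, 1.40 and 0.742 CPM against 1.91, 2.39, 1.85 and 2.03 CPM (-0.81, SE 0.24). Kcnab1, a potassium channel beta subunit, differed by -0.82 (SE 0.24) and Nrxn2, a neurexin, by -0.50 (SE 0.16). Tst, the mitochondrial sulfurtransferase rhodanese, was at 9.66, 10.1, 9.48 and 8.79 CPM against 11.8, 11.2, 11.5 and 11.3 CPM (-0.27, SE 0.08). Plekhh2 was at -0.42 (SE 0.13) and Pdzd3, a scaffold protein gene, at -0.71 (SE 0.24).

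Of 12 smooth muscle and pericyte markers, 0 were called, 2 were lower with an unadjusted p under 0.05 and 0 higher, 3 (beside 1.40% of all genes) had all Acadl Het libraries below the wild type, and the median was -0.13, or -0.04 without Acadl Het replicate 4. Tagln, an actin-binding protein of smooth muscle, was at 23.1, 15.2, 20.6 and 20.4 CPM against 30.6, 34.7, 32.6 and 25.4 CPM (-0.64, SE 0.21; edgeR adjusted p = 0.927). Myh11, the smooth muscle myosin heavy chain, was at 47.5, 27.7, 40.02 and 38.6 CPM against 58.3, 68.0, 59.9 and 51.9 CPM (-0.64, SE 0.27). Cnn1, which encodes calponin, was at 1.15, 0.927, 1.52 and 1.54 CPM against 2.08, 2.28, 2.34 and 1.76 CPM (-0.71, SE 0.35). The groups did not overlap in any of the 3, and replicate 2 was the lowest Acadl Het library in each. Lmod1, an actin nucleator of smooth muscle, was at 3.84, 2.32, 3.93 and 4.56 CPM against 5.10, 6.45, 5.51 and 5.10 CPM (-0.61, SE 0.20). The summed level of the list was 1003 to 1241 CPM in Acadl Het and 1061 to 1291 CPM in the wild type, so the whole list overlapped where these genes did not. Abcc9, its most abundant member, encodes a potassium channel subunit and differed by 0.14 (SE 0.09). It made up 363 to 446 CPM of the sum in Acadl Het and 352 to 405 CPM in the wild type. The sum therefore says little about the scarcer smooth muscle genes.

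Cell division genes had the lowest median of the functional lists, at -0.28, with 15 of 16 below 0, but 0 had an unadjusted p under 0.05. Rrm2, a subunit of ribonucleotide reductase, was at 2.44, 2.56, 3.19 and 2.43 CPM against 4.12, 3.57, 4.03 and 3.39 CPM (-0.51, SE 0.27), without overlap. Mki67, the proliferation marker, was at 5.13, 6.22, 7.95 and 8.31 CPM against 11.1, 7.54, 8.52 and 9.29 CPM (-0.41, SE 0.25), with -0.24 without wild-type replicate 1 and -0.13 within batch 1. The list's median was -0.13 within batch 1 and -0.37 within batch 2. Ciart, a repressor of the circadian clock, was the 1 of 19 clock genes lower with an unadjusted p under 0.05, at -0.72 (SE 0.30) and -0.46 without wild-type replicate 4.

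Acadl and the genes next to it on chromosome 1 were taken as a group of their own. In a mixed strain, alleles linked to a targeted locus are inherited with it. Within 2 Mb, 4 of 10 tested genes had an unadjusted p under 0.05, within 5 Mb 5 of 33 (15.2%), and within 10 Mb 8 of 124 (6.45%), beside 3.42% of all genes. These counts include Acadl; its neighbours alone gave 3 of 9, 4 of 32 (12.5%) and 7 of 123 (5.69%). Within 5 Mb of Acadvl it was 2 of 164 (1.22%). None was called. Lancl1, which encodes a glutathione-binding protein, starts 0.17 Mb past Acadl and had the smallest p of all genes lower in Acadl Het. It was at 26.5, 30.6, 28.2 and 30.8 CPM in Acadl Het and 36.4, 34.2, 37.7 and 34.9 CPM in the wild type (-0.30, SE 0.07; edgeR adjusted p = 0.565). Myl1, a myosin light chain of fast skeletal muscle, lies between them. It was at 23.2, 23.3, 22.3 and 21.9 CPM against 33.4, 31.9, 29.5 and 32.5 CPM (-0.49, SE 0.19; edgeR adjusted p = 1.00). Both groups kept to narrow bands, with the same difference within batch 1 (-0.49) and batch 2 (-0.49).

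Both genes were lower again in the hearts labelled Acadl KO. Myl1 was at 4.22 ± 1.28 CPM in Acadl KO / Acadvl wt (SD, n = 4), while Acadl KO / Acadvl Het had 5.45 ± 1.24 CPM (n = 5). Against Acadl Het / Acadvl wt the former differed by -2.44 (SE 0.22; edgeR adjusted p = 1.95e-07). Lancl1 was at 23.7 ± 0.612 CPM in Acadl KO / Acadvl wt, a difference of -0.27 from Acadl Het / Acadvl wt (SE 0.07; edgeR adjusted p = 0.00496). In the other genotypes with the Acadl Het label, Lancl1 was at 28.4 ± 1.56 CPM (n = 3, Acadl Het / Acadvl Het) and 28.0 ± 0.883 CPM (n = 4, Acadl Het / Acadvl KO), overlapping the 29.0 ± 2.08 CPM of Acadl Het / Acadvl wt. Myl1 was at 20.4 ± 3.49 CPM in the former, and in the latter at 21.6 to 22.1 CPM in 3 libraries and 39.2 CPM in replicate 3. Other skeletal muscle genes were at traces: Myh1, Myh2, Myh4 and Myod1 had at most 4, 9, 23 and 2 counts in any of the 8 libraries. The list of 8 tested skeletal markers, Myl1 included, had a median of -0.31, which was 0.03 within batch 2 and -0.11 without wild-type replicate 3. The other 7 had a median of -0.27 and ran from -0.55 to 0.25, and 0 had an unadjusted p under 0.05.

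On the higher side near Acadl were Erbb4 and Unc80. Erbb4, the receptor tyrosine kinase for neuregulin, was at 4.03, 4.83, 5.22 and 4.03 CPM against 3.16, 3.30, 2.57 and 3.79 CPM (0.50, SE 0.17; edgeR adjusted p = 0.927). Unc80, a subunit of a sodium leak channel, was at 1.12, 0.415, 0.557 and 0.666 CPM against 0.343, 0.468, 0.206 and 0.441 CPM (0.90, SE 0.31), with replicate 2 inside the wild-type range. In Acadl KO / Acadvl wt, Erbb4 was at 3.95 ± 1.06 CPM (SD, n = 4), between Acadl Het / Acadvl wt and the wild type and overlapping both. Unlike Myl1 and Lancl1 it gave no step from Acadl Het to Acadl KO that passed the test (-0.26, SE 0.17; edgeR adjusted p = 0.232).

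Genes of small p were also counted in bins along all chromosomes, a choice made after the values were seen, and chromosome 8 ranked first. Of 830 genes tested on chromosome 8, 50 had an unadjusted p under 0.05 (6.02%), the highest share of any chromosome. The bin from 40 to 50 Mb ranked first of 231 bins of 10 Mb that held at least 20 genes, with 10 of 45 genes (22.2%). The next bins were chromosome 6 from 0 to 10 Mb with 6 of 31 genes (19.4%), which holds Asns, Tac1 and Pdk4, and chromosome 5 from 90 to 100 Mb with 8 of 43 (18.6%), which holds Cxcl2 among a cluster of chemokine genes. The bin of Acadl was the fourth, with 6 of 39 (15.4%). From 40 to 75 Mb on chromosome 8 it was 29 of 203 (14.3%), 19 higher and 10 lower. These edges were set after the values were seen. The region was not even, as the bin from 60 to 70 Mb held 2 of 42 (4.76%). In 24 of the 29 genes (82.8%) Acadl Het replicate 1 was the Acadl Het library closest to the wild-type mean. Elsewhere it was 107 of 510 genes of small p (21.0%). Neighbouring genes are not independent, so these shares are a description. Acsl1 and Arrdc2, above and below, lie in this region. Arrdc2, an arrestin-domain gene induced by glucocorticoids, was at 19.8, 38.6, 8.89 and 10.4 CPM against 53.7, 29.1, 68.6 and 26.6 CPM (-1.32, SE 0.49).

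Some genes of this region, picked after the values were seen, split the Acadl Het hearts. Others did not: Acsl1 was above the wild type in every Acadl Het library, and Arrdc2 was closest to the wild-type mean in replicate 2. Zfp868, a zinc finger gene, was at 7.10, 12.4, 21.6 and 21.0 CPM in Acadl Het replicates 1 to 4 and 8.41, 7.18, 6.82 and 7.15 CPM in the wild type (1.06, SE 0.36; edgeR adjusted p = 0.947). Replicate 1 was at the wild-type level, replicate 2 between, and replicates 3 and 4 at the top. Pdlim3, an actinin-binding protein of the Z-disc, was at 39.9, 102, 128 and 189 CPM against 53.0, 42.9, 51.9 and 51.7 CPM (1.20, SE 0.56). Calr3, a calreticulin paralog, was at 23.9, 43.5, 51.0 and 61.3 CPM against 24.0, 22.3, 26.2 and 29.5 CPM (0.81, SE 0.27). Ocel1 had the same order, at 6.34, 11.95, 16.2 and 17.8 CPM against 6.47, 6.69, 9.70 and 8.72 CPM. Haus8, a subunit of the augmin complex of the spindle, ran the other way, at 13.3, 8.80, 5.70 and 6.10 CPM against 13.1, 11.4, 13.9 and 13.5 CPM (-0.64, SE 0.26). Nwd1 was at 0.576, 0.463, 0.0960 and 0.0190 CPM against 0.883, 1.00, 0.712 and 1.15 CPM (-1.87, SE 0.48; edgeR adjusted p = 0.719).

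Levels of Zfp868 did not follow the Acadl label over the series. Within each of the 5 genotypes other than wild type, at least 1 library was at or under 9.04 CPM and at least 1 at or above 12.2 CPM, and no library of the 24 lay between these values. The highest of each were 21.6 CPM (Acadl Het / Acadvl wt), 12.7 CPM (Acadl Het / Acadvl Het), 17.2 CPM (both Acadl Het / Acadvl KO and Acadl KO / Acadvl wt) and 19.4 CPM (Acadl KO / Acadvl Het). Which strain's allele a library carried there was not measured. Junb, at 84976909 to 84978748 on chromosome 8, lies outside the region and did not show this order of libraries. Calr and Farsa, named above, lie near Junb, starting at 84842088 and 84856986. The bin from 80 to 90 Mb that holds these genes had 4 of 96 with an unadjusted p under 0.05 (4.17%), beside 3.42% of all genes.

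Transcripts of tissue beside the ventricle differed between single libraries. Bmp10, a growth factor of the right atrium, had 504 counts in Acadl Het replicate 4 and 0, 1 and 8 in replicates 1 to 3, against 1, 4, 1 and 3 in the wild type. Its log2 difference of 5.51 (SE 1.37; edgeR adjusted p = 0.565) was 0.35 without Acadl Het replicate 4 and -1.94 within batch 2. Sln, which encodes sarcolipin, an atrial regulator of the calcium pump, was at 6.39, 3.83, 27.1 and 15.3 CPM against 3.75, 9.93, 2.19 and 6.15 CPM (1.46, SE 0.82), 0.77 without Acadl Het replicate 3 and -0.43 within batch 2. Of 11 atrial markers 1 was higher and 1 lower with an unadjusted p under 0.05, and the summed level was 403 to 750 CPM against 482 to 575 CPM. All 20 hepatocyte markers had a positive difference and 0 an unadjusted p under 0.05, with a median of 1.41. That median was 0.74 without Acadl Het replicate 4, 2.54 without wild-type replicate 4, 0.47 within batch 2 and 0.58 among members with a mean of at least 1 CPM. Alb was at 1.81, 0.195, 5.66 and 6.62 CPM in Acadl Het and 1.45, 0.0669, 0.581 and 3.05 CPM in the wild type. The median of the cytokine list was highest in Acadl Het replicates 1 and 4, hepatocyte markers in replicates 3 and 4 and the atrial sum in replicates 3 and 4. The part of these tissues in the results was not tested.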

How the data were processed

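Messenger RNA was measured in heart by sequencing of polyA-captured libraries, 1 per sample, as single-end reads per the labels' protocols. The authors deposited raw read counts per gene symbol, 24421 in each file. Per the file headers, reads over exons were counted with featureCounts 1.5.2 on mm10, without regard to strand and a read over several genes was counted in each of them. STAR 2.5.1b and featureCounts 1.5.3 are the tools in the submitters' processing notes. Antisense and overlapping genes therefore share reads. No counts of mitochondrially encoded genes were analysed here.

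The deposited counts were analysed in R 4.3.3. The filter on low counts was filterByExpr over the 6 genotypes and the scaling was TMM. All 24 libraries (batches of 9 and 15) entered 1 quasi-likelihood fit in edgeR 4.0.16 whose terms were the genotype and the batch of RNA isolation. P-values were two-sided and adjusted by the Benjamini-Hochberg method over 15804 genes, with a threshold of 0.05. The other genotypes set the spread and enter comparisons only where named; comparisons with wild type share its 4 libraries. Alternatives were DESeq2 1.42.0, limma 3.58.1 (voom), other scaling, other filters, the 8 libraries alone, no batch term, each batch alone, Rn45s left out and each library left out. The fit was tested on simulated counts. Within a genotype, chi-square per degree of freedom between the 2 libraries of a pair was 14.9 to 55.1, far above sampling noise, and each library was kept as its own sample.

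The members and the 42 gene lists were chosen with earlier results of these data known. Named genes are Acadl and Acadvl, the genes of smallest p in each direction (10 each, mean of at least 1 CPM, named symbol, libraries not overlapping), per list up to 3 of smallest p and the most abundant, and 4 near Acadl. The rule takes 175 names, of which 61 are in the text. Fos, Egr1, Ccl2, Ccl7, Cxcl2, Fgf21, Zfp868, Calr3, Pdlim3, Nwd1, Haus8 and Ocel1 lie outside it. They, the position bins, the chromosome 8 region and the promoter search were chosen after the values were seen. Marker genes named by level only (Myh6, Alb and the skeletal myosins) come from the marker lists.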

Additional observations from a re-analysis of the deposited data

Results flagged for a closer look

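Among 148 groups of 4 libraries, 12 had 1 library far from the other 3 by Dixon's test, at a critical value of 0.829 for 4 samples. Chance alone flags about 1 group in 20 at this level. Levels are in CPM.

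Higher than the rest of the Acadl Het hearts were Calr in replicate 1 (215.5 against at most 177.3), C1qb in replicate 1 (37.96 against at most 34.4), Plekhh2 in replicate 3 (7.083 against at most 6.194), Rrm2 in replicate 3 (3.186 against at most 2.561), Bmp10 in replicate 4 (9.584 against at most 0.1536) and Hmox1 in replicate 4 (146 against at most 44.46). Lower than the rest was Tac1 in Acadl Het replicate 3 (0.595 against at least 1.097). In the wild type, lower libraries were replicate 3 for Ptx3 (0.6744 against at least 1.718), replicate 4 for Kcnab1 (1.284 against at least 1.692), replicate 2 for Nrxn2 (12.34 against at least 16.98) and replicate 2 for Pdlim3 (42.94 against at least 51.68). Cxcl12 was higher in wild-type replicate 2 (364.3 against at most 315.7).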

How the results depend on the processing

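No paired analysis was possible because the labels give no replicate number: libraries were numbered in order of deposit. Over 35 alternatives, 24 of which left out 1 library, genes were called in 2, and the gene was Junb in both. The count of called genes was 1 with DESeq2 and 0 to 1 with a library left out. The count of genes with an unadjusted p under 0.05, 541 in the main analysis, was 925 with the 8 libraries alone, 865 within batch 1, 342 within batch 2, and 362 (without Acadl Het replicate 4) to 714 (without Acadl Het replicate 1) with a library left out. Genes whose libraries do not overlap, 518 in all, were 803 to 1096 with a library left out, where fewer libraries make overlap rarer. Of the log2 differences of 72 named genes, those of Bmp10 (-1.936), Sln (-0.4314) and Cxcl12 (0.0531 within batch 1, -0.1838 to 0.0877 with a library left out) changed sign, the first pair within batch 2, and no other did under these alternatives; the cause was not tested. Scaling moved the median of all genes by at most 0.010. With 4 libraries against 4, Il6 and Fgf21 rest on few counts. The spread behind each test comes from all 24 libraries.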
